A study of Mus musculus with 8 samples.

Results

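At postnatal day 5 (P5), cells of the mouse retina that carry Cd73 on their surface (Cd73PC) were compared with the cells that do not (Cd73NC). Both fractions came from retinas of slc:ICR mice, separated by flow cytometry with an antibody to Cd73, and each was sequenced once. The same sort was made at P2 and P8, and whole retinas were taken at E15 and E18, so the 2 P5 libraries are 2 of 8 libraries in all. No treatment and no genotype beyond the background strain is named for any of them. Retinas were pooled before each sort, and the study names limited purity of the fractions. The values are FPKM, the number of sequenced fragments scaled to transcript length and to the total mapped. The genes compared were those with an FPKM of at least 1 in either P5 fraction once small RNAs had been left out, which kept 12197 of 21831 genes.

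Cd73 is the 5'-ectonucleotidase encoded by Nt5e, and it turns extracellular AMP into adenosine. In the retina it appears on rod precursors soon after they leave the cell cycle and stays on mature rods. In the first postnatal week of the mouse, rod precursors switch on the phototransduction genes and begin to build the outer segment, the stack of membrane discs that catches light, while the last progenitors still divide and give rise to bipolar cells and Müller glia. A sort for Cd73 is meant to part rods and their precursors from the other neurons, the glia and the last dividing cells.

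Each condition has 1 library, so no difference can be set against the spread of replicates, and no test or p-value is given. A gene is described as higher in a fraction when its FPKM + 1 was over 1.5 times that of the other fraction, and differences are given on the log2 scale of FPKM + 1, Cd73PC minus Cd73NC. In bulk RNA, fewer cells of a type and less RNA per cell cannot be told apart. By this rule 1500 genes (12.3% of the genes kept) were higher in Cd73PC and 3291 (27.0%) in Cd73NC, and the median difference over all genes kept was -0.18. Of the genes higher in Cd73PC, 542 differed by 2 to 4 times, 122 by 4 to 8 times and 20 by more. Of those higher in Cd73NC, 1500 differed by 2 to 4 times, 259 by 4 to 8 times and 2 by more. Thus Cd73NC held more genes on its side, and Cd73PC held most of those that differed by over 8 times.

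The balance between the sides depends on the scaling. With both libraries brought to the same upper quartile, the median moved to -0.04 and the counts to 1967 higher in Cd73PC and 2761 in Cd73NC, so that Cd73PC took 41.6% of the calls in place of 31.3%. With quantile normalization over the 8 libraries, the median was 0.03 and the share was 48.6% (2193 and 2318 genes). Read counts are not in the files. The most common ratio among 2067 weakly expressed rows, where FPKM steps reflect whole reads, gave Cd73PC 0.971 times the depth of Cd73NC, so the 2 libraries were of nearly equal depth.

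**Figure D1:**
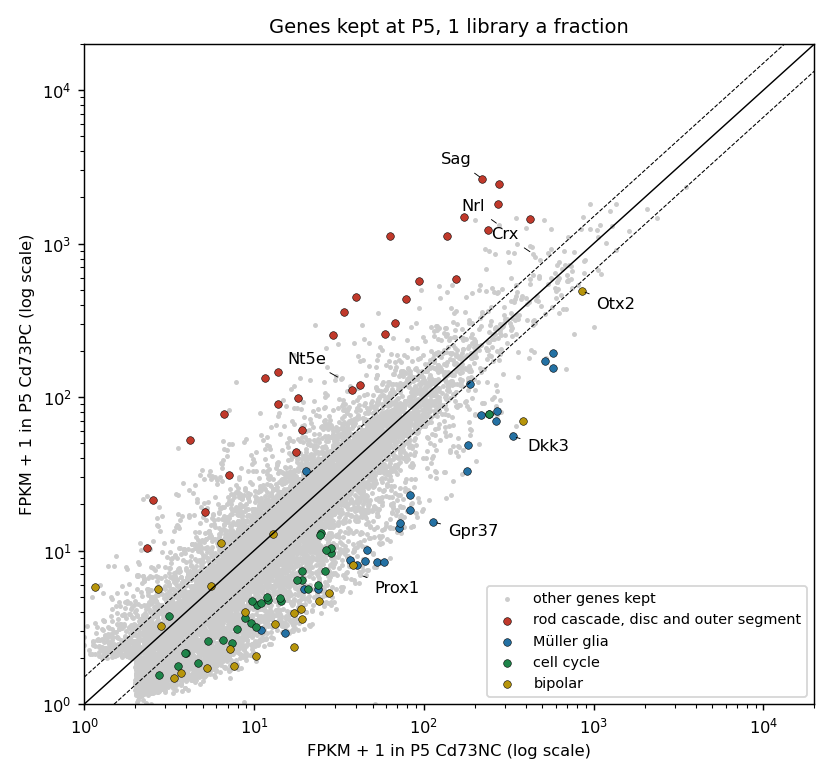
FPKM + 1 of the genes kept in P5 Cd73NC (horizontal, log scale) and P5 Cd73PC (vertical, log scale), 1 point a gene and 1 library a fraction; the solid line marks equality and the dashed lines 1.5-fold. Genes of the rod cascade and outer segment lie above the lines, with Sag at 2642 against 221, and Müller glia and cell cycle genes lie below them with few exceptions.

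The sort was checked on 4 genes. Nt5e itself (chr9:88222447-88266927, build mm9) stood at 131 in Cd73PC and 31.4 in Cd73NC. Nrl (chr14:56137815-56143802), the leucine zipper factor that fixes the rod fate, stood at 1317 and 277. Crx (chr7:16451296-16465304), the homeodomain activator shared by rods, cones and bipolar cells, stood at 859 and 438. Prox1 (chr1:191945658-191994559), a homeodomain factor of horizontal cells, some amacrine and bipolar cells and late progenitors, went the other way, with 5.96 in Cd73PC and 40.9 in Cd73NC. The 3 photoreceptor markers were thus 4.07, 4.74 and 1.96 times as high in Cd73PC on FPKM + 1, and Prox1 was 6.02 times as high in Cd73NC. Each is on the side the label gives it. Neither fraction was without the markers of the other: Nt5e in Cd73NC was 24.0% of its level in Cd73PC.

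Of the 43 gene lists, the rod phototransduction cascade had the largest median difference toward Cd73PC. The phototransduction cascade passes the light signal through transducin (Gnat1, Gnb1, Gngt1) to the phosphodiesterase (Pde6a, Pde6b, Pde6g), and is shut off by arrestin (Sag), the kinase Grk1, recoverin (Rcvrn) and the Rgs9 complex. All 14 members were kept and all 14 were higher in Cd73PC, with differences of at least 1.56 and a median of 3.10, which is 3.28 above the median of all genes. Sag, the most abundant transcript listed for Cd73PC, read 2642 in Cd73PC and 221 in Cd73NC. Pde6b, the catalytic beta subunit, read 359 and 33.0. Gnb5, a partner of Rgs9 that many neurons use, was the least different member at 109.7 and 36.6. The 16 disc and outer segment genes in the files were also all higher in Cd73PC, with a median of 2.38. Among them Prph2, which shapes the disc rim, read 1124 and 135, and Impg1, of the matrix around the outer segment, read 51.6 and 3.21.

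The cyclic GMP channel closes when light lowers cyclic GMP. Its rod subunits Cnga1 (124 and 6.86) and Cngb1 (296 and 21.8) were among the 15 largest differences of the whole comparison. Of 8 genes listed for the channel, the cyclases and the exchanger, 7 were higher in Cd73PC. The exception was Guca1a, an activator of the guanylate cyclase, at 43.0 in Cd73PC and 52.7 in Cd73NC. Its partner Guca1b was weak in both, at 4.21 and 2.16.

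The promoters of 4 of these genes are shown because Crx and its relative Otx2 bind the letters TAATCC, which read GGATTA on the other strand. Each sequence is from RefSeq on build GRCm38.p6, covers 250 bases before and 50 after the start of the gene, and has any TAATCC or GGATTA in capitals. Sag and Cnga1 are shown as late genes with steep differences, Nrl and Crx as the factors upstream of them.
Sag, chr1:87803430-87803729, plus strand: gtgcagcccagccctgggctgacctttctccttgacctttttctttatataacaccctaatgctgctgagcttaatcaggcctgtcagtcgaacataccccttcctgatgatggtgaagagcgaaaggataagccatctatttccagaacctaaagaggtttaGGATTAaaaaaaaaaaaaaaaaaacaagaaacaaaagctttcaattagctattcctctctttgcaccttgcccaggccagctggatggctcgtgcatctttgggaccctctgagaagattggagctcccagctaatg
Cnga1, chr5:72642703-72643002, minus strand: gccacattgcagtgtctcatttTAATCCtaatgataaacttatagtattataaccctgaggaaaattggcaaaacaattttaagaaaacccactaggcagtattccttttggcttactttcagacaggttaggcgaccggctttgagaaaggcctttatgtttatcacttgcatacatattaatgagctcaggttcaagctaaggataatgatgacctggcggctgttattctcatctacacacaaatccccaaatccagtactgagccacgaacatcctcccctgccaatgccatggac
Nrl, chr14:55524203-55524502, minus strand: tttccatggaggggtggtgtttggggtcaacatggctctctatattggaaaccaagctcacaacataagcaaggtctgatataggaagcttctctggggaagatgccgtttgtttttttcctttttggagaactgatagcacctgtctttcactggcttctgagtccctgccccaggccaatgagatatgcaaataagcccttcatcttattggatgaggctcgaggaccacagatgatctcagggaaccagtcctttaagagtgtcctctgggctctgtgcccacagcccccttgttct
Crx, chr7:15879906-15880205, minus strand: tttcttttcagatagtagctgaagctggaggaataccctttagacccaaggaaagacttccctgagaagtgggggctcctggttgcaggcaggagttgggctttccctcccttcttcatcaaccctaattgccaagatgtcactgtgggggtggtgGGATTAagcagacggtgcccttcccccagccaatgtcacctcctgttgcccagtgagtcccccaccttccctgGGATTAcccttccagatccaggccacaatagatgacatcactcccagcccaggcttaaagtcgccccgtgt
Counted from the start of the gene, Sag holds 1 match at -87, Cnga1 holds 1 at -228, and Crx holds 2 at -94 and -21. The Nrl window holds none. Of all 32851 promoters of that length in the table, 7.06% hold the letters on either strand. A match is a description of the sequence and not a bound site, and the absence of one concerns this window only.

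The transcription factors of rods were less one-sided than their targets. Of 15 listed, 12 were kept, 7 were higher in Cd73PC, 1 was higher in Cd73NC and 4 were in neither group, with a median of 0.92. Nr2e3, the orphan receptor that represses cone genes in rods, was the steepest at 1434 and 200 (7.15 times on FPKM + 1). Samd7, a Polycomb-associated repressor in rods, read 203 and 55.4. Neurod1 read 626 in Cd73PC and 440.1 in Cd73NC, and Prdm1, which turns precursors away from the bipolar fate, read 51.6 and 53.3. Otx2, which acts before Crx and is kept by bipolar cells, was higher in Cd73NC at 492 and 851. Rax (240.5 and 272) and Rorb (57.9 and 81.8), which also act outside the rod fate, were in neither group.

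This grading was followed over 41 rod genes that reached an FPKM of 10 in Cd73PC at P2, P5 and P8, by giving the level in Cd73NC as a percentage of that in Cd73PC. At P5 the median was 17.8%, with the middle 50% of genes between 11.2% and 34.6%. Among the lowest were Cnga1 (5.55%), Impg1 (6.22%) and Gnat1 (7.34%). Nr2e3 stood at 13.9%, Nrl at 21.1% and Crx at 51.0%. Mef2d, Neurod1 and Prdm1 stood at 54.5%, 70.3% and 103%. Rax (113%), Guca1a (123%), Rorb (141%) and Otx2 (173%) were above equality. The filter keeps genes through the fraction in which rod genes are high, and it left out 9 of the 50 listed rod genes kept at P5. Among these, Esrrb, a nuclear receptor of rods, read 4.96 and 0.231 (4.65%), below every gene followed, although it is a transcription factor. Over all 50 genes the median was 17.7%.

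The same 41 genes were less one-sided at P5 than at the stages around it. The P5 median of 17.8% compares with 5.75% at P2 and 8.96% at P8, and the highest value of the 3 fell at P5 for 36 genes, at P2 for 2 and at P8 for 3. For Nrl the percentage of 21.1% at P5 compares with 2.88% at P2 and 7.57% at P8. For Crx the percentages over P2, P5 and P8 were 15.5%, 51.0% and 30.3%, and for Sag 1.36%, 8.35% and 6.55%. In Cd73NC the level was higher at P5 than at P2 for all 41 genes, and higher than at both other stages for 27. In Cd73PC it was lower at P5 than at P2 for 5 genes, among them Otx2 (492 against 777), Neurod1 (626 against 687) and Prdm1 (51.6 against 108), and 1 gene was lower than at both other stages. Nrl read 984, 1317 and 1417 in Cd73PC over the 3 stages, and 28.3, 277 and 107 in Cd73NC. Nt5e moved with it, at 2.43, 31.4 and 9.38 in Cd73NC, so the P5 negative fraction held more of the sorted marker's own transcript. The part of sort purity, or of precursors low in Cd73 protein, in these percentages was not tested.

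**Figure D2:**
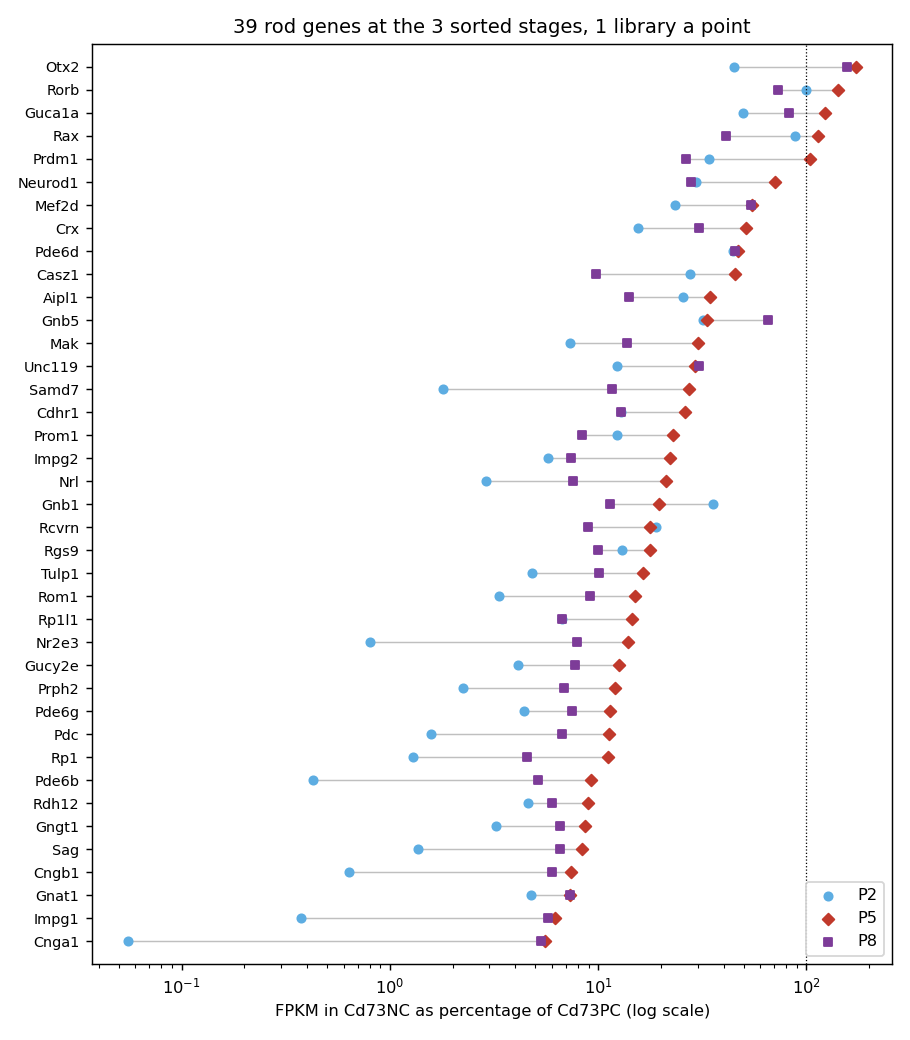
FPKM in Cd73NC as a percentage of FPKM in Cd73PC (horizontal, log scale) for 39 rod genes, ordered by the P5 value, with P2 as circles, P5 as diamonds and P8 as squares, 1 library a fraction at each stage. The P5 diamonds run from 5.55% (Cnga1) to 173% (Otx2) and lie to the right of both other stages in 35 genes.

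The order of the genes at P5 was set beside the level of each in the retina at E18. The level in E18 whole retina, a library outside the P5 pair, was taken as a percentage of the level in P8 Cd73PC. Across the 41 genes its Spearman correlation with the P5 percentage was 0.925, and with the P2 percentage 0.869. The 14 genes under 1% at E18 lay at 17.8% or lower at P5, with a median of 8.50%. The 17 genes between 1% and 10% had a median of 22.0%, and the 10 genes above 10% had a median of 62.4%. All 41 points share the same 4 libraries and are not replicates, so the correlation is a description. Each percentage is also divided by a Cd73PC level of the same gene. A positive correlation can thus be partly built in, to an extent that was not tested. Whole retina at E18 holds many cell types, so early expression in rods and expression in other cells cannot be told apart here. Over the 50 listed genes kept at P5 it was 0.83, with Esrrb at 4.22% at E18 and 4.65% at P5. Guca1a lay apart, with 5.00% at E18 and 123% at P5.

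**Figure D3:**
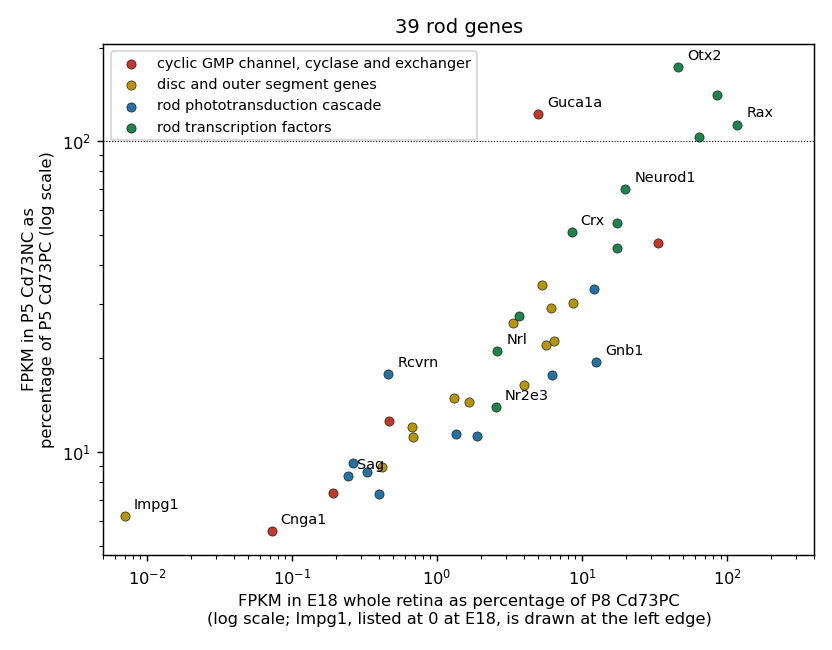
The P5 percentage of 39 rod genes (vertical, log scale) against their level in E18 whole retina as a percentage of P8 Cd73PC (horizontal, log scale), colored by gene list. Genes nearly absent at E18, such as Cnga1 (5.55%), lie lowest, and genes already expressed at E18, such as Otx2 and Rax, lie above 100%.

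Cone genes were close to equal between the fractions. Of 13 kept, 4 were higher in Cd73PC, 2 in Cd73NC and 7 in neither group, and the list median of -0.15 was near that of all genes and became positive under quantile normalization. Opn1sw, the short-wave opsin, read 79.5 in Cd73PC and 99.4 in Cd73NC, and Gnat2, the cone transducin, 22.3 and 35.3. The other way, Gngt2, the gamma subunit assigned to cones, read 1460.4 and 348, and the cone factors Thrb (18.5 and 7.28) and Rxrg (22.6 and 6.31) were higher in Cd73PC. At P2 the list median had been 1.68, so the cone genes had lain on the positive side there.

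Genes that carry the rod signal onward were mostly on the positive side. The ribbon synapse of photoreceptors feeds glutamate to bipolar cells without pause, and 13 of 17 genes listed for it were higher in Cd73PC, with a median of 1.64. The glutamate loader Slc17a7 read 239 and 43.6, the complexin Cplx4 read 48.4 and 6.45, and the potassium channel subunit Kcnv2 read 94.1 and 13.8. The active zone scaffold Bsn (2.99 and 4.12) and Ctbp2 (98.3 and 69.5), which encodes the ribbon protein Ribeye as well as a corepressor, were in neither group. Of 19 general synaptic vesicle genes, 10 were higher in Cd73PC, among them Snap25 at 380 and 93.2 and Syp at 857 and 261. Synaptotagmin Syt4, Cplx1 and Rims1 were among the 4 higher in Cd73NC, so the vesicle machinery was split by isoform.

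The outer segment is a modified cilium, and 15 of 23 ciliary genes were higher in Cd73PC, with a median of 1.03. The difference was largest for Fam161a, a protein of the connecting cilium, at 37.8 and 5.58. Rpgrip1, which anchors the ciliary gate, read 51.5 and 10.3, and the small GTPase Arl6 read 128 and 28.9. The Bardet-Biedl genes Bbs1, Bbs2, Bbs4, Bbs7 and Bbs9 were all higher, with differences of 1.17 to 1.76. Rpgr (7.14 and 7.29), Ift88 (5.46 and 4.11) and the motor Kif3a (11.0 and 11.9), which serve cilia of many cells, were in neither group. Tulp3, the relative of the rod gene Tulp1, was on the other side at 7.83 and 23.5.

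Most kept genes of bipolar, amacrine and horizontal cells were higher in Cd73NC. Of 23 bipolar genes kept, 17 were higher in Cd73NC, 3 in Cd73PC and 3 in neither group, and the median was -1.66. Over all genes the shares were 27.0% and 12.3%, so the share higher in Cd73PC was near that of all genes. Lhx4 read 7.09 in Cd73PC and 37.2 in Cd73NC, Bhlhe23 read 2.56 and 18.1, and Grm6, the glutamate receptor of ON bipolar cells, 0.761 and 6.58. The kainate receptor Grik1 (1.37 and 16.1) was among the 15 largest differences. Some late bipolar genes were in neither group: Trpm1, the channel downstream of Grm6, read 2.24 and 1.83, Pcp2 read 11.75 and 11.99, and Prkca read 4.91 and 4.61. Gng13 (10.2 and 5.41), Sebox (4.60 and 1.70) and Cabp2 (4.82 and 0.163) were higher in Cd73PC. At P8 Trpm1, Pcp2, Prkca, Gng13 and Sebox were all higher in Cd73NC, with differences of -1.72 to -2.67, and at P2 Trpm1, Pcp2, Gng13 and Sebox had been higher in Cd73PC. The set of 5 was picked out after its values were seen, and it leaves out Cabp2, which was in neither group at P8 (-0.58).

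Among 16 amacrine genes kept, 13 were higher in Cd73NC, with a median of -1.54. Pax6 read 13.0 and 65.0, and Prdm13 read 3.05 and 16.6. The glycine transporter Slc6a9 was the only member higher in Cd73PC, at 72.3 and 40.6. Many amacrine genes were barely present in either fraction, and Gad1, Chat and Th were all below an FPKM of 1. Of 9 horizontal cell genes kept, 6 were higher in Cd73NC, led by Prox1, which other cell types share. Lhx1, Onecut1 and Calb1 were below an FPKM of 1 in both fractions. Ndrg1, which is listed there but is used by many cells, was higher in Cd73PC at 816 and 452. Of 28 ganglion cell genes, 13 were kept and 10 of those were higher in Cd73NC, and the defining Pou4f1, Pou4f2, Sncg and Thy1 were all below 1 in both fractions.

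Nearly all Müller glia genes were on the negative side. Of 27 kept, 26 were higher in Cd73NC and 1 in Cd73PC, and the median was -2.08. Glul, which makes glutamine, read 75.0 in Cd73PC and 216 in Cd73NC, and Slc1a3, the glutamate transporter, read 31.8 and 180 (5.50 times on FPKM + 1). Rlbp1, which binds retinaldehyde, read 68.8 and 264. Dkk3, a secreted relative of Wnt antagonists, read 54.4 and 333, and Gpr37 (14.4 and 113) was the steepest at 7.40 times. Clu, a secreted chaperone, was the exception at 31.9 and 19.3. Aqp4, a water channel of mature glia, read 0.0851 and 0.366. In E18 whole retina, which the study describes as mostly progenitors and early-born cells, the 29 listed genes summed to an FPKM of 3245. The kept members summed to 4309 in P5 Cd73NC, so the list is not particular to Müller glia. Over 25 Müller genes with an FPKM of at least 5 in Cd73NC at all 3 stages, the median level in Cd73PC as a percentage of Cd73NC was 32.5%, 20.3% and 18.8% over P2, P5 and P8. That filter keeps genes through the fraction in which Müller genes are high, so the low percentages are partly a result of the choice.

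**Figure D4:**
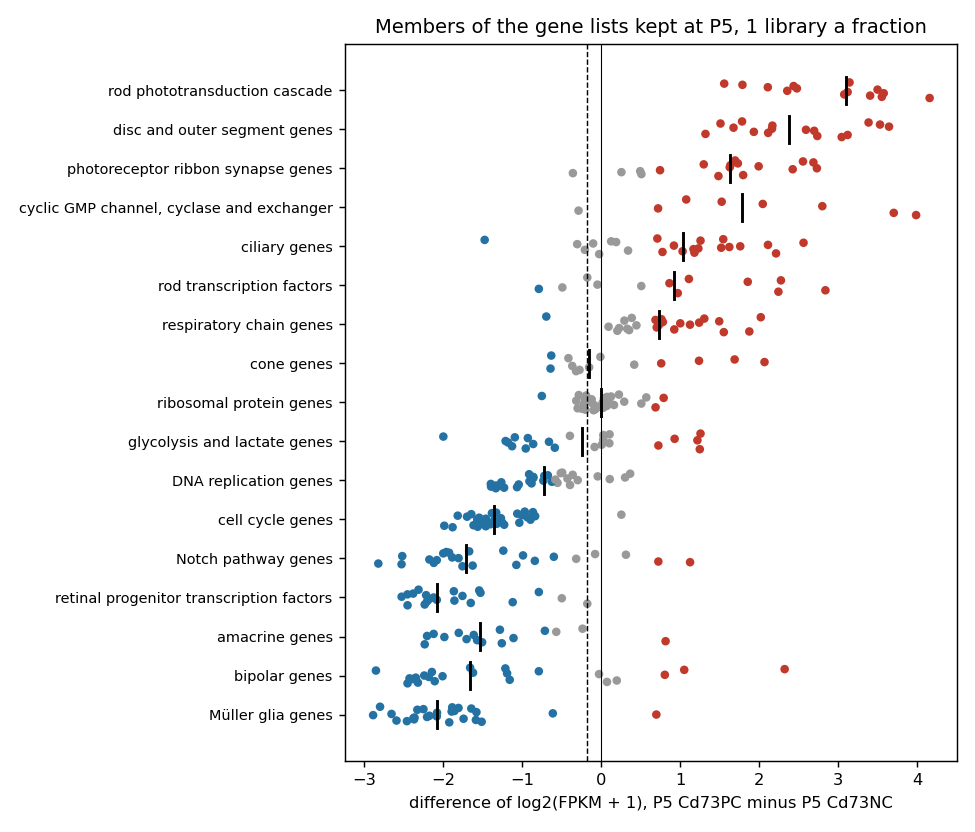
Difference of log2(FPKM + 1), P5 Cd73PC minus P5 Cd73NC, for the kept members of 17 gene lists, 1 point a gene; red points were over 1.5 times as high in Cd73PC, blue points in Cd73NC, grey points in neither, black bars mark list medians and the dashed line the median of all genes kept (-0.18). The phototransduction median lies at 3.10 and the Müller glia median at -2.08, with the ribosomal protein genes gathered near 0.

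Progenitor and neurogenic genes lay with the glia. Of 21 progenitor transcription factors kept, 19 were higher in Cd73NC and none in Cd73PC, with a median of -2.08. Sox2 read 9.03 and 45.2, and Lhx2 read 21.9 and 82.1. Rax, which photoreceptor precursors also use, was in neither group at 240.5 and 272. Of 15 proneural factors, 11 were higher in Cd73NC. Neurod4 read 152 and 684, and the abundant Sox4 read 56.6 and 331. Insm1, a zinc finger factor of newborn neurons, was higher in Cd73PC at 147 and 74.3.

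The Notch pathway, in which ligands on neurogenic cells hold their neighbors as progenitors or glia, was on the same side in nearly all its parts. Of 24 genes, 19 were higher in Cd73NC, and the median was -1.71. The ligands Dll1 (4.78 and 32.3), Dll3 (7.93 and 62.1) and Dll4 (1.67 and 10.6), the receptor Notch1 (25.1 and 87.0), the fringe Lfng (5.53 and 36.4) and the targets Hes1 (4.66 and 22.9) and Hes5 (17.3 and 81.8) were all higher there. The ligands Jag1 (3.51 and 1.07) and Jag2 (2.73 and 1.26) were the 2 higher in Cd73PC, both at low levels. Hedgehog and Wnt genes followed, with 19 of 21 higher in Cd73NC, including Smo (11.3 and 49.9), Fzd5 (6.18 and 33.6) and Sfrp2 (3.27 and 11.4).

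Cell cycle genes were higher in Cd73NC in 31 of 32 cases, with a median of -1.35. Mki67, the antigen of cycling cells, read 4.64 in Cd73PC and 19.8 in Cd73NC, Ccnb1, the cyclin of mitosis, read 5.00 and 22.8, and Top2a read 8.66 and 27.5. Ccne2 was the one in neither group, at 2.75 and 2.14. Over P2, P5 and P8 the summed FPKM of the list was 2661, 631 and 93.7 in Cd73NC, and 787, 208 and 37.5 in Cd73PC, so it was lower at each later stage in both fractions. DNA replication genes were more divided, with 18 of 30 higher in Cd73NC. All of Mcm2 to Mcm7 were among these, with Mcm2 at 7.38 and 20.1, while Pcna (66.0 and 87.0), Fen1 (14.8 and 18.4) and Dut (19.9 and 15.2) were in neither group. At P2 the median of that list had been -1.61, against -0.73 at P5. The inhibitors of cyclin dependent kinases did not follow: 3 of 8 were higher in Cd73NC, against 27.0% of all genes, and Cdkn1c read 33.6 and 37.0.

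Energy metabolism was split by enzyme. Of 24 genes of the respiratory chain and its partners, 15 were higher in Cd73PC and 1 in Cd73NC, with a median of 0.73, which is 0.91 above that of all genes. Cox8a, of cytochrome oxidase, read 993 and 352, Ndufb8, of complex I, read 538 and 146, and Atp5o, of the ATP synthase, read 475 and 192. The mitochondrial creatine kinase Ckmt1 read 105 and 25.1, and its cytosolic counterpart Ckb was the member on the other side, at 1466 and 2373. The list median had been 0.16 at P2 and was 0.60 at P8. Among 22 glycolysis and lactate genes, 5 were higher in Cd73PC and 10 in Cd73NC. Ldha, which makes lactate, read 1822 and 956, while Ldhb read 53.7 and 103. Hexokinase Hk1 read 63.9 and 26.3 against 2.19 and 5.18 for Hk2. Eno2 (79.8 and 33.7) opposed Eno1 (178 and 414), and the lactate carriers Slc16a8 (5.38 and 1.67) and Slc16a3 (11.1 and 47.2) lay on opposite sides. Isozymes of the same step were thus found on different sides, while Pkm2 (1305 and 1282) and Gapdh (281 and 262) were nearly equal.

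Lipid genes were divided in the same manner, with 5 higher in Cd73PC and 5 in Cd73NC among 11. Elovl4 and Elovl2, which lengthen the very long polyunsaturated chains of disc membranes, read 302 and 88.9, and 149 and 66.4. Elovl5 (6.99 and 35.5), the desaturases Fads1 (22.6 and 48.6) and Fads2 (47.9 and 82.3), and Scd2 (64.3 and 349), which makes monounsaturated chains, were higher in Cd73NC. Ribosomal protein genes served as a reference: 31 of 34 were in neither group and the median was -0.0039, with Rps14 (1500 and 867), Rpl10a (783 and 485) and Rps23 (5.81 and 10.5) outside. Its sign changed with the scaling, as it did for the lipid, cone and Polycomb lists and for no other of 43.

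Most Polycomb and H3K4 methylation genes were in neither group. Of all genes kept, 39.3% were higher in one fraction or the other. Of 13 genes of Polycomb repressive complex 2 and its partners, which place and read the H3K27me3 mark, 11 were in neither group. The methylase Ezh2 was higher in Cd73NC, at 21.4 and 43.3, and the accessory subunit Jarid2 higher in Cd73PC, at 51.5 and 30.0. Ezh1, the methylase of resting cells, read 10.9 and 7.72, Eed 19.1 and 14.7, and Suz12 31.1 and 32.0. Of 15 H3K4 methylation genes, 12 were in neither group. Rod nuclei later gather their heterochromatin in the center. Of 21 genes of nuclear architecture, 8 were higher in Cd73NC, against 27.0% of all genes, and 12 were in neither group. The list median was -0.51. Those higher in Cd73NC included Lbr (11.5 and 19.9), Lmnb1 (45.3 and 73.0) and the heterochromatin protein Cbx5 (7.37 and 20.1). At P8 Lbr and Lmnb1 were in neither group. Lmna was low in both P5 fractions at 1.73 and 2.13. The H3K9 methylase Suv39h2 was the only one higher in Cd73PC, at 20.04 and 6.10.

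Over all genes kept, the 15 largest differences toward Cd73PC included Cnga1, Susd3, Cngb1, Impg1, Sag, Gnat1, Rdh8, Gngt1, Reep6, Pde6b, Rdh12, Calml4 and Pax7. Most have a known place in rods. Susd3 (45.8 and 2.57) and Calml4 (20.7 and 1.23) are less studied there, and Pax7 (21.7 and 1.36), a paired-box factor known from muscle precursors, was listed at 9.98 and 0 at P2 and at 13.0 and 0.722 at P8. The 15 largest toward Cd73NC included Bc1, Pisd-ps1, Gpr37, Omg, Grik1, Dll3, Prss23, Sema5a, Tgfb2, Sema5b, Fam5b, St8sia2, Cxcr4 and St6gal1. Guidance genes stood there with Sema5a at 5.12 and 40.4 and Sema5b at 5.89 and 44.8. Bc1, a brain cytoplasmic RNA, was listed at 0 in Cd73PC and 50.5 in Cd73NC, and Pisd-ps1, a pseudogene, read 0.0371 and 7.78. Both were near 0 in both fractions at P2 and P8, so these 2 values rest on 1 library, and reads of a pseudogene and its parent may have been shared.

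Among genes with an FPKM of at least 20 in a fraction, the level in the other fraction had a lower limit. Among 3654 genes with an FPKM of at least 20 in Cd73PC, none was under 5% in Cd73NC, and 16 were under 10%. At P2, 37 of 3920 such genes had been under 5%, with Cnga1 at 0.0556%. In the other direction, among 3971 genes with an FPKM of at least 20 in Cd73NC, the 10th lowest in Cd73PC stood at 12.8%, and Bc1 alone was under 10%. That limit was 17.9% at P2 and 8.83% at P8. Genes of different cell types lay near this limit at P5, with Gpr37 at 12.8%, Dll3 at 12.8% and Kdr at 15.5% of Cd73NC. Weaker genes, which this filter left out, went below these limits. Cabp2 and Esrrb stood at 3.38% and 4.65% of Cd73PC in Cd73NC, and Grik1 at 8.52% of Cd73NC in Cd73PC. The part of carried-over cells in these floors was not tested.

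Markers of cells that are not retinal neurons or Müller glia were present in both fractions, and several lay on different sides from P2. Of 11 astrocyte genes kept, 8 were higher in Cd73NC with a median of -1.08, where the median at P2 had been 1.84. Their summed FPKM in Cd73PC was 246, 107 and 121 over P2, P5 and P8, and in Cd73NC it was 41.3, 219 and 221. Igf2 and Aldoc carried most of these sums in Cd73PC, and without them the sums in Cd73PC and Cd73NC were 38.0 and 30.1 at P2 and 19.1 and 72.2 at P5. Not every member turned: Entpd2 and Ednrb were on the negative side at P2 as well, with differences of -1.86 and -1.37, and Fgfr3 was on the positive side at both stages. Pdgfra, of astrocyte precursors, read 3.91 and 19.6 at P5 and 15.4 and 2.22 at P2, and Igf2 read 39.3 and 98.5 at P5 and 165 and 7.92 at P2. Of 15 microglia genes kept, 6 were higher in Cd73NC and none in Cd73PC, with a summed FPKM of 86.3 and 126 at P5 against 105 and 26.3 at P2. Csf1r, the receptor microglia need, read 4.38 and 8.02 at P5, and Ptprc was under 1. Pigment epithelium genes were on the positive side at both stages but by far less at P5: the summed FPKM was 87.0 and 57.9, against 93.3 and 3.06 at P2, and its defining Rpe65 and Best1 were under 1. The list medians of astrocyte and microglia genes thus changed sides between P2 and P5, and that of the pigment epithelium genes did not. The part of these markers in the other differences was not tested.

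**Figure D5:**
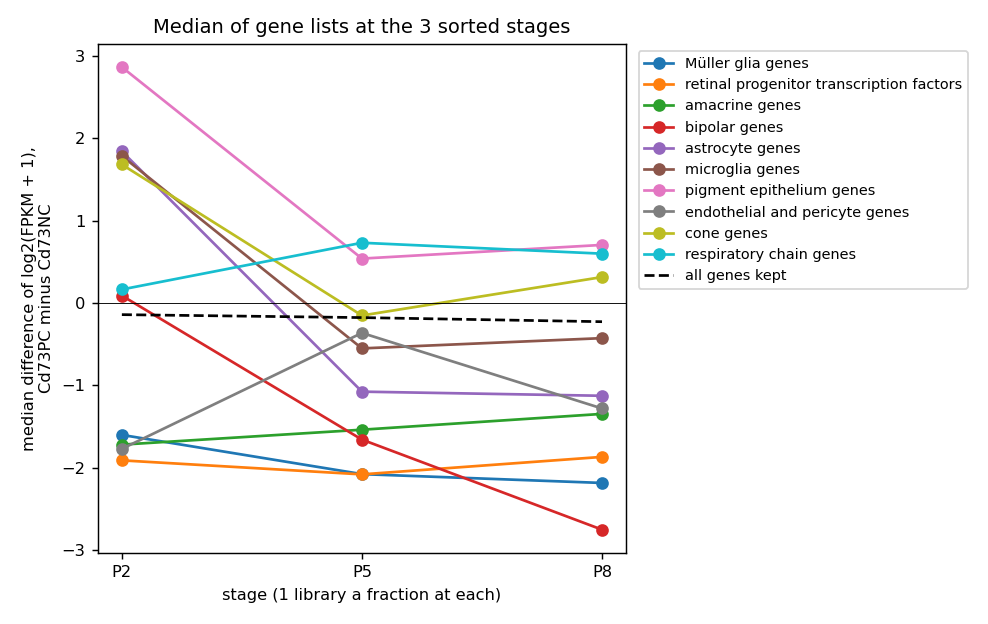
Medians of 10 gene lists (vertical), as log2(FPKM + 1) in Cd73PC less that in Cd73NC, by stage of the sort (horizontal), with all genes kept as a dashed line and 1 library a fraction at each stage. The astrocyte median goes from 1.84 at P2 to -1.08 at P5 and the bipolar median from 0.09 to -1.66, while the Müller glia and progenitor medians stay at -1.60 or lower.

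Of 14 endothelial and pericyte genes kept, 4 were higher in Cd73NC, 1 in Cd73PC and 9 in neither, against shares of 27.0% and 12.3% over all genes. Kdr, a receptor for VEGF that retinal progenitors also express, read 22.1 and 143, whereas Pecam1 (1.46 and 0.813), Cldn5 (8.94 and 9.49) and Tie1 (1.81 and 0.940) were in neither group on FPKM + 1. As deposited, the low values of Pecam1 and Tie1 were 1.80 and 1.92 times as high in Cd73PC. Of 5 globin and erythroid genes kept, 4 were in neither group, and Hba-a1 was among the 10 highest values of Cd73NC at 1346, with 911 in Cd73PC. Its 2 rows were summed, and reads of near-identical globin copies cannot be assigned with certainty. Of 17 lens genes, 3 were kept, with Cryab the highest at 3.62 and 10.1. Immediate early genes, which can respond to dissociation, had a median of -0.51: Fos read 3.39 and 10.1 and Egr1 13.2 and 25.3, whereas Ier3 read 84.3 and 16.2. Of 13 heat shock genes, 1 was higher in Cd73PC, 3 in Cd73NC and 9 in neither, beside 12.3% and 27.0% of all genes on the 2 sides.

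The P5 calls were set beside those of P2 and P8, which come from separate pools of retinas. Of the 1500 genes higher in Cd73PC at P5, 958 were also higher at P2 (63.9% of the P5 genes and 53.4% of the P2 genes) and 1037 at P8 (69.1% and 64.5%), 753 were higher at all 3 stages, and 258 at neither of the others. Of the 3291 genes higher in Cd73NC, 2134 were so at P2 (64.8% and 69.4%), 2446 at P8 (74.3% and 63.3%), 1652 at all 3 stages, and 363 at neither. At P2 the background was 14.6% higher in Cd73PC and 25.0% in Cd73NC, and at P8 it was 13.0% and 31.3%. In either direction together the called share was 39.3% at P5, against 39.6% at P2 and 44.4% at P8. Calls in opposite directions were few: 11 genes were higher in Cd73PC at P5 and in Cd73NC at P2, and 98 the reverse. Between P5 and P8 the same counts were 39 and 6. Fabp7, the fatty acid binding protein of radial glia and astrocytes, was the one gene higher in Cd73NC at P5, with 354 and 625, and in Cd73PC at both P2 (951 and 458) and P8 (196 and 122).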

How the data were processed

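Poly(A) RNA of the sorted and whole retina samples was sequenced as short single-end reads on an Illumina GA. Per the labels and the study's methods, the authors aligned the reads to NCBI37/mm9 with TopHat2 2.0.8b, made FPKM values with Cufflinks 2.1.1 at default settings, and deposited them as 1 table of 23021 rows per library with lower and upper bounds and a status. The submitters' processing notes also name CASAVA 1.8.2 and bcl2fastq 1.8.4.

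The P5 tables were joined on symbol and locus. The 784 rows of small RNAs, named by symbol, were left out, rows of 235 symbols with more than 1 row were summed, and values whose status was not OK (4 to 10 failed rows and 283 rows of low data per library) were taken as missing. Genes reaching an FPKM of 1 in one or both fractions were kept, and differences were computed on log2(FPKM + 1), a scale that understates the change of weakly expressed genes. A gene past 1.5-fold, the fold the study marks in its own plots, was counted as higher. In 1779 kept genes the FPKM lay outside its own bounds, so bounds were used only as an alternative. Depth was estimated only as a ratio of the libraries, so no counting interval is given.

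With 1 library a group no model was fitted. The 43 gene lists were written by hand, and the members, lists and alternatives were chosen with earlier results of these data known. Genes named are the 3 markers and Nt5e; the first 6, the 2 highest and 2 lowest, and up to 3 opposing members of each list; the 15 largest differences each way; the 10 highest values in each fraction; and the 10 largest opposite calls between stages. Some genes that meet this rule are not reported here. Other list members named were chosen after their values were seen. Alternatives changed the pseudocount, the filter, the small RNA rows, the summing, the scaling, the missing values, the threshold and the use of bounds. Promoters were read from a RefSeq table of GRCm38.p6, while gene coordinates are those of the mm9 files with starts counted from 1. Scripts ran in Python 3.11.15 with numpy 2.4.6, pandas 2.3.3 and matplotlib 3.10.9, and were tested on simulated data.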

Additional observations from a re-analysis of the deposited data

Results flagged for a closer look

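Of 385 genes considered under the naming rule, 26 were past 1.5-fold one way at P5 and past it the other way at P2 or P8. Among all genes kept, this held for 50 of the 1500 higher in Cd73PC at P5 and 103 of the 3291 higher in Cd73NC. The naming rule takes in the largest opposite calls between stages, so some of the 26 were named for the trait counted here. The 26 are thus a list and not a rate. Each stage has 1 library a fraction, so none of these differences between stages was tested, and all values are differences of log2(FPKM + 1), Cd73PC minus Cd73NC. The astrocyte list, with a median of -1.08 at P5, 1.84 at P2 and -1.13 at P8, held Pdgfra (-2.07), Igf2 (-1.30), Pax2 (-1.14), S100b (-1.08) and Gfap (-0.89), each positive at P2. Genes outside that list that changed sides in the same way were Mlc1 at -1.70 and Bcan at -1.59, both known from astrocytes, and Fn1, a fibronectin, at -1.24. Mlc1, Bcan and Fn1 are among the largest opposite calls between stages, so they were not picked independently of that change. The microglia genes Ctss (-0.98), Fcer1g (-0.79), Csf1r (-0.75) and Cx3cr1 (-0.72) were likewise higher in Cd73PC at P2, where their differences were 1.95, 1.39, 1.81 and 1.43.

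Among neuronal genes, Otx2 stood at -0.79 at P5 and 1.15 at P2, and the bipolar calcium sensor Cabp5 at -1.16 and 1.48. Sebox (1.05) and Gng13 (0.81) were positive at P5 and at P2 and turned to -1.98 and -2.67 at P8. The synaptic vesicle list had a median of 0.78 at P5, 1.13 at P2 and -0.70 at P8, and its members Sv2a (0.92 at P5, -1.15 at P8) and Cplx1 (-0.98 at P5, 1.41 at P2) changed sides. Jag2, a Notch ligand, stood at 0.72 at P5 and -0.93 at P8. The immediate early genes Fos (-1.34) and Egr1 (-0.89) had been at 0.80 and 0.85 at P2. The lens list had a median of -1.13 over 3 weak genes, and Cryab, a small heat shock protein that glia also make, stood at -1.27 at P5 and on the positive side at P2. The others were Slitrk6 at -2.39, Adamts16 at -1.33, Gm4980 at -1.26 and BC048943, the only one negative at P2 and positive at P5, at 1.39.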

How the results depend on the processing

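No paired analysis was possible because the P5 fractions form a single pair. A fit of fraction with stage as a term over the 6 sorted libraries would estimate a mean over stages, not the P5 difference, and was not run. With 1 library a fraction, none could be left out in turn. Of 473 list medians recomputed under the alternatives, 448 stayed within 1.5-fold of the reported value, 25 moved by more, and none changed to the opposite sign from a median past 1.5-fold. Of the values of named genes, 3770 stayed and 71 moved by more than that, and none changed sign from past 1.5-fold. Bc1, at 0 in Cd73PC, has no value without a pseudocount. A threshold of 2-fold left 684 genes higher in Cd73PC and 1761 higher in Cd73NC. The percentage of rod genes in Cd73NC was 17.8%, 18.5% on FPKM + 1, 15.9% with upper-quartile scaling, and 17.7% over all listed rod genes kept at P5, as medians, the last chosen after seeing the data. Without a pseudocount the medians were 2.79 for the cyclic GMP channel, -2.39 for bipolar, -2.26 for amacrine, -1.98 for both horizontal and ganglion cell, -2.05 for hedgehog and Wnt, and -2.35 for receptor genes. With a pseudocount of 0.1 they were 2.69, -2.36, -2.13, -1.74 (horizontal), -2.01 (hedgehog and Wnt) and -2.19 (receptors). With an FPKM of at least 5 the cyclic GMP channel median was 2.80, horizontal -1.72, astrocyte -1.69, adenosine pathway 0.661 and receptors -2.10. With no filter, amacrine was -0.912, horizontal -0.0245, ganglion cell -0.163, lens 0, receptors -0.385 and synaptic vesicle 0.172. These alternatives change how weak genes are weighted or kept. Quantile normalization gave -0.488 for the lens genes, and the cause was not tested. Treating the rows of low data as measured, an alternative chosen after seeing the data, kept 12233 genes, 1504 higher in Cd73PC and 3298 in Cd73NC.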

Other observations

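Further lists not used above were also divided, and their counts stand beside 12.3% of all genes higher in Cd73PC and 27.0% in Cd73NC. Among 11 adenosine pathway genes kept, Nt5e was joined in Cd73PC by the alkaline phosphatase Alpl (8.79 and 1.87), which also releases adenosine, by the nucleoside carriers Slc29a1 (14.9 and 9.07) and Slc29a2 (13.7 and 5.63), and by Pnp (51.9 and 28.9), which degrades inosine. Entpd2, another ectonucleotidase, was on the other side at 3.62 and 23.5, as were Slc29a4 (3.07 and 12.5) and Ampd2 (6.85 and 28.2). Of 14 glutamate, GABA and glycine receptor genes kept, 11 were higher in Cd73NC and none in Cd73PC, with Gria4 at 1.38 and 9.15 and Glrb at 1.70 and 10.7. Among 18 genes of the rod surface, the scaffold Mpp4 (44.8 and 5.65) and the polarity gene Crb2 (22.5 and 6.57) were higher in Cd73PC, while Crb1 read 33.0 and 32.8. Cd24a (37.2 and 203) and Cdh2 (32.2 and 115) were higher in Cd73NC.

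In the matrix and visual cycle list, Rbp3, the retinoid carrier between rods and pigment epithelium, read 1265 and 399, and the dehydrogenases Rdh8 (81.5 and 6.10) and Dhrs3 (28.1 and 4.57) were higher in Cd73PC. Of 20 splicing and RNA-binding regulators kept, 11 were higher in Cd73NC, including Elavl3 (2.20 and 11.8), Rbfox2 (2.26 and 13.4) and Ptbp1 (41.2 and 86.4). Mbnl1 (12.4 and 4.41) was the only one higher in Cd73PC, and Msi1, which is abundant in photoreceptors, read 385 and 294. Of 20 apoptosis genes kept, 8 were higher in Cd73NC, among them Apaf1 (3.55 and 7.29) and Trp53 (28.3 and 55.0). Bcl2l1 (98.6 and 60.9) and Xiap (33.6 and 19.8) were the 2 higher in Cd73PC, a share near that of all genes. Of 17 circadian clock genes, 4 were higher in Cd73PC (among them Cry1, Rora and Bhlhe41) and 5 in Cd73NC (Per2, Per3, Nr1d1, Dbp and Hlf), and Clock read 8.44 and 9.71. Of 12 collagen and stromal genes kept, 8 were higher in Cd73NC and none in Cd73PC, with Sparc at 81.3 and 278.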
